A study of Sus scrofa with 6 samples.

Results

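The mRNA levels of 10 genes that help copy chromatin along with DNA were compared in IPEC-J2 cells with and without the bile acid chenodeoxycholic acid (CDCA). The genes are HELLS, DNMT1, UHRF1, NASP, ASF1B, CHAF1A, CHAF1B, EZH2, ATAD2 and HMGB2, taken by gene name from the 31908 pig gene IDs of the expression table; all 10 were found, on 32 of its 63041 transcript rows. They were chosen with the differences between CDCA and control in these same 6 libraries already known, so those differences are given as a description and no p-value is attached to them. IPEC-J2 is a pig cell line of small intestinal (jejunal) epithelium. RNA was sequenced from 3 libraries of cells given PBS (CON) and 3 of cells given 50 μM CDCA (the CDCA group), each for 24 h, so the design has 1 line, 1 dose and 1 time. The labels do not say whether the libraries of a group came from separate cultures, and the p-values below then measure only the spread between these libraries.

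When a cell copies its DNA, the new strand carries no methyl groups and the nucleosomes have to be rebuilt. DNMT1 is the methyltransferase that restores CpG methylation after replication; UHRF1 recognises hemimethylated CpG sites and recruits it, and HELLS is a chromatin remodeler of the SNF2 family that opens nucleosomal DNA to methylation. New histones H3 and H4 are held by NASP, passed on by ASF1 and deposited at the fork by CAF-1, whose large and middle subunits are CHAF1A and CHAF1B. EZH2 is the catalytic subunit of Polycomb repressive complex 2 (PRC2), which methylates histone H3, ATAD2 is an ATPase with a bromodomain that binds acetylated histones, and HMGB2 is an abundant protein that bends DNA. Several of these genes are commonly used as markers of S phase, and HMGB2 as a marker of G2/M.

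The unit throughout is TPM, a transcript abundance scaled to a fixed total per library, summed over the listed transcripts of a gene ID. TPM is already divided by transcript length, so levels of different genes were set side by side, as levels of their listed transcripts only. The listed rows summed to between 351770 and 366073 TPM per library, well short of the 1000000 to which a full set of transcripts is scaled, so the table may lack transcripts and a gene sum may miss part of its gene. Read counts were not used here, so the reads behind a single value are not known here and no counting interval is given. Genes that averaged 1 TPM or more across all 6 libraries passed the filter and were tested, and a gene was called higher or lower where limma gave a false discovery rate (FDR) under 0.05 and a log2 fold change, CDCA minus CON on log2(TPM + 1), over 1 in size. The 13 mRNAs encoded by mitochondrial DNA made up between 13.8% and 15.03% of this sum in the CON libraries, against between 2.90% and 3.45% in the CDCA libraries. Epithelial markers were present: EPCAM was listed at 118 to 173 TPM and KRT8 at 190 to 238 TPM across the 6 libraries, although CDH1, OCLN, CLDN7 and VIL1 stayed under 0.65 TPM in each. Of 11 epithelial markers found, 7 were tested. CLDN4 was called higher (225 ± 11 TPM in CON and 806 ± 51 TPM in CDCA, SD, n = 3 each) and none was called lower, against 3.51% and 3.90% of all tested genes. The markers summed to 725 to 748 TPM in CON and 1277 to 1414 TPM in CDCA, mostly through CLDN4. At a limma FDR under 0.05 with any fold change, 5 of the 7 were higher and 1 was lower. Together these are 85.7%, against 53.2% of all tested genes. Besides CLDN4, those higher were ESRP1 (5.96 TPM in CON and 12.1 TPM in CDCA on average), ELF3 (15.7 and 30.2 TPM), EPCAM and KRT18. KRT7 was lower, at 78.5 ± 1.3 TPM in CON and 48.5 ± 2.8 TPM in CDCA, and KRT8 overlapped between the groups. The 8 mesenchymal markers summed to at most 1.97 TPM in any library, and the 4 endothelial markers to at most 2.74 TPM. The 7 immune markers summed to 1.70 to 3.04 TPM in CON and 7.76 to 8.69 TPM in CDCA. PTPRC was at 0 in 5 libraries and at 0.01 TPM in the other. Of the 2 immune markers tested, CD68 was called higher and none lower, against 3.51% and 3.90% of all tested genes. CD68 read 0, 0 and 0.26 TPM in CON and 5.33, 4.75 and 4.44 TPM in CDCA. It passed the filter through its CDCA libraries only. The part of these shifts in the values below was not tested.

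Of the 10 genes, HELLS had the largest difference in summed TPM on the log2 scale. Its CON libraries read 7.61, 8.76 and 13.22 TPM, and its CDCA libraries 0.09, 0.27 and 0 TPM. The groups did not overlap, and every CDCA library lay close to 0, whereas the CON libraries themselves spread widely, with a mean of 9.86 ± 2.96 TPM (SD, n = 3). The log2 fold change was -3.25 (SE 0.20). With values this near 0 its size is set by the constant added before the logarithm: it was -5.66 with 0.1 TPM in place of 1 TPM. HELLS reached the filter of a mean of 1 TPM through its CON libraries only.

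The spread of HELLS in CON lay mostly in a single listed transcript. Of the 4 listed, ranked by their mean, the transcript of rank 1 was at 5.49, 3.68 and 3.60 TPM in CON and carried all of the CDCA signal. The transcript of rank 2 was at 0.33, 4.39 and 7.88 TPM in CON and at 0 in each CDCA library. That of rank 3 was at 1.79, 0.69 and 1.74 TPM in CON and again at 0 in CDCA, and that of rank 4 was at 0 throughout. With the highest transcript alone in place of the sum, the log2 fold change of HELLS was -2.22, the smallest of any setting tried, and that of ASF1B was larger in size, at -2.26.

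DNMT1, the maintenance methyltransferase, read 16.15, 17.50 and 15.51 TPM in the control libraries, compared to 7.51, 6.23 and 7.84 TPM after CDCA. The groups did not overlap, and the CDCA mean was 0.439 of the CON mean, a log2 fold change of -1.09 (SE 0.09). This is just past the limit of 1 used for a call, and with single libraries left out it lay between -1.15 and -1.002. Its main transcript, 84.2% of the sum in CON, was at 13.8 TPM in CON and 5.50 TPM in CDCA on average. The transcript of rank 2 was at 1.41, 2.05 and 2.39 TPM against 2.28, 0.75 and 1.74 TPM, and overlapped between the groups.

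UHRF1, which guides DNMT1 to new DNA, had next to no listed signal: 0.03, 0.05 and 0 TPM in CON and 0, 0.03 and 0 TPM in CDCA. It was below the filter and was not tested. A value near 0 in this table need not mean a silent gene. Of 37 S phase genes found that are not among the 10, 11 were also under the filter. Of these, 7 stayed under 1 TPM in every library. Among the 7 was PCNA, the sliding clamp of replication, with a CON mean of 0.433 ± 0.091 TPM (SD, n = 3). PCNA was picked as an example after its values were seen.

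**Figure D1:**
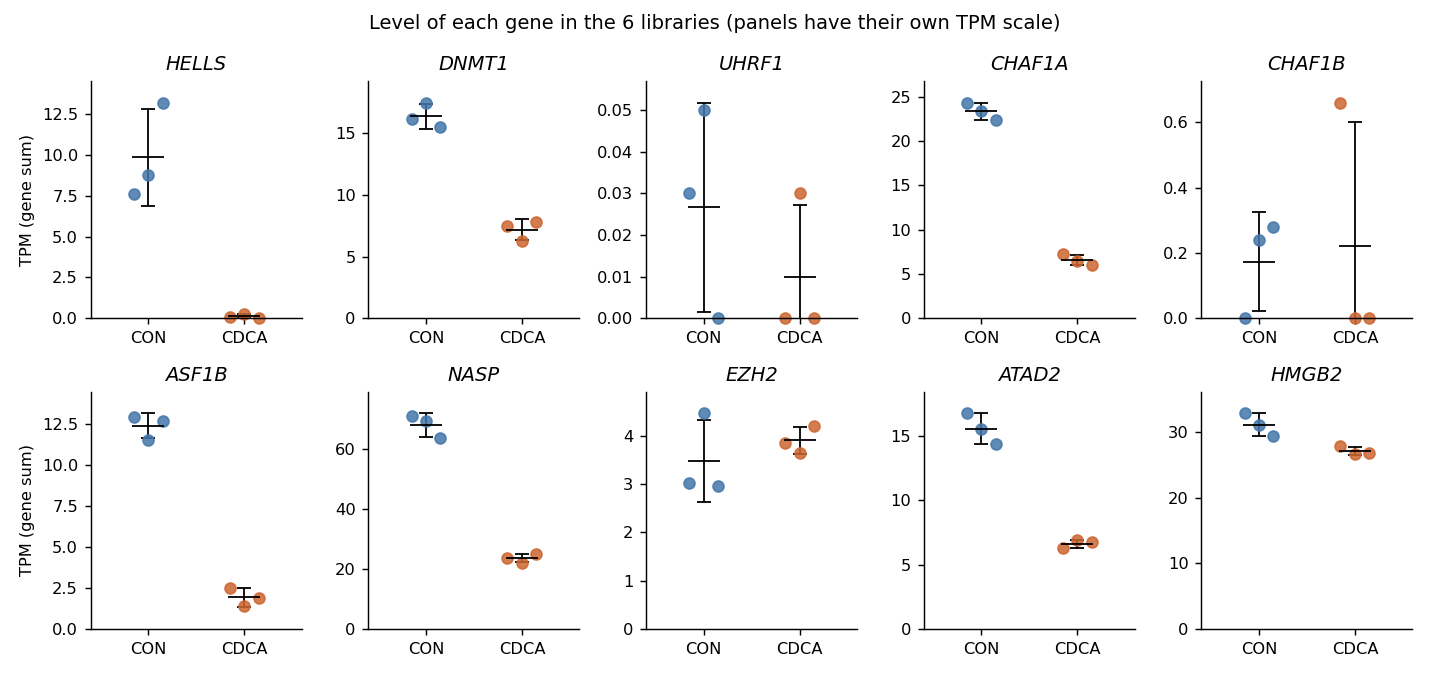
TPM of each of the 10 genes in the 3 CON (blue) and 3 CDCA (orange) libraries, each panel on its own linear scale from 0; bars show the mean and SD and are cut at 0 where the SD exceeds the mean. The groups lie apart for HELLS, DNMT1, CHAF1A, ASF1B, NASP, ATAD2 and, by a small margin, HMGB2, overlap for EZH2, and UHRF1 and CHAF1B stay under 1 TPM.

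Of the 4 chosen histone chaperone genes, NASP, ASF1B and CHAF1A were above the filter and lower in CDCA, and CHAF1B was below it. NASP, which keeps a pool of soluble H3 and H4, had the highest listed TPM of the 10 in CON, at 71.11, 69.22 and 63.62 TPM, compared to 23.67, 22.11 and 24.91 TPM in CDCA. The groups lay far apart, with a ratio of means of 0.347 and a log2 fold change of -1.49 (SE 0.06). Its transcripts of rank 1 and rank 2, which made up 63.2% and 29.0% of the CON sum, had ratios of 0.363 and 0.310.

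ASF1B, the form of ASF1 tied to proliferating cells, measured 12.93, 11.51 and 12.70 TPM in CON, compared to 2.51, 1.37 and 1.91 TPM in CDCA. The highest CDCA library was below the lowest CON library, with a log2 fold change of -2.21 (SE 0.15) and a ratio of 0.156. Both of its listed transcripts were lower, with ratios of 0.140 and 0.221.

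CHAF1A, the large subunit of CAF-1, has 1 listed transcript. The CON libraries gave 24.36, 23.38 and 22.37 TPM and the CDCA libraries 7.23, 6.50 and 6.04 TPM, so the log2 fold change was -1.69 (SE 0.07) and the groups were far apart. CHAF1B, its partner in the same complex, read 0, 0.24 and 0.28 TPM in CON, compared to 0.66, 0 and 0 TPM in CDCA, below the filter and overlapping between the groups. The table thus gives no usable value for this second subunit.

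ATAD2, the bromodomain ATPase, measured 16.75, 15.55 and 14.38 TPM in CON, compared to 6.29, 6.89 and 6.72 TPM in CDCA. The groups did not overlap, and the log2 fold change was -1.12 (SE 0.07). Its transcript of rank 1 read 9.90, 7.48 and 8.39 TPM in CON, compared to 2.94, 4.29 and 3.81 TPM in CDCA, and that of rank 2 read 6.85, 8.07 and 5.99 TPM, compared to 3.35, 2.60 and 2.91 TPM. Neither overlapped between the groups, and which of them was higher varied among the libraries of each group.

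EZH2 and HMGB2 stood apart from these. EZH2 measured 3.03, 4.47 and 2.97 TPM in CON, compared to 3.86, 3.65 and 4.21 TPM in CDCA. The groups overlapped, and the log2 fold change was 0.14 (SE 0.14). The means of its transcripts of rank 1 and rank 2 differed in opposite directions. That of rank 1 averaged 2.20 TPM in CON and 1.62 TPM in CDCA and overlapped between the groups. That of rank 2 read 0, 0.84 and 0 TPM in CON, compared to 1.20, 1.61 and 1.08 TPM in CDCA, and did not. With the highest transcript in place of the sum, the log2 fold change of EZH2 was -0.32. The groups overlapped for that transcript as for the sum, and the values are low, so no direction is read for EZH2.

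HMGB2 measured 32.93, 31.12 and 29.45 TPM in CON, compared to 27.89, 26.70 and 26.91 TPM in CDCA. The groups did not overlap, but the gap was small, with a ratio of 0.872 and a log2 fold change of -0.19 (SE 0.05). It took 16.9% to 17.8% of the summed TPM of the 10 genes in CON and 34.3% to 36.2% in CDCA. The sum itself was 175 to 185 TPM in CON and 73.8 to 79.7 TPM in CDCA.

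**Figure D2:**
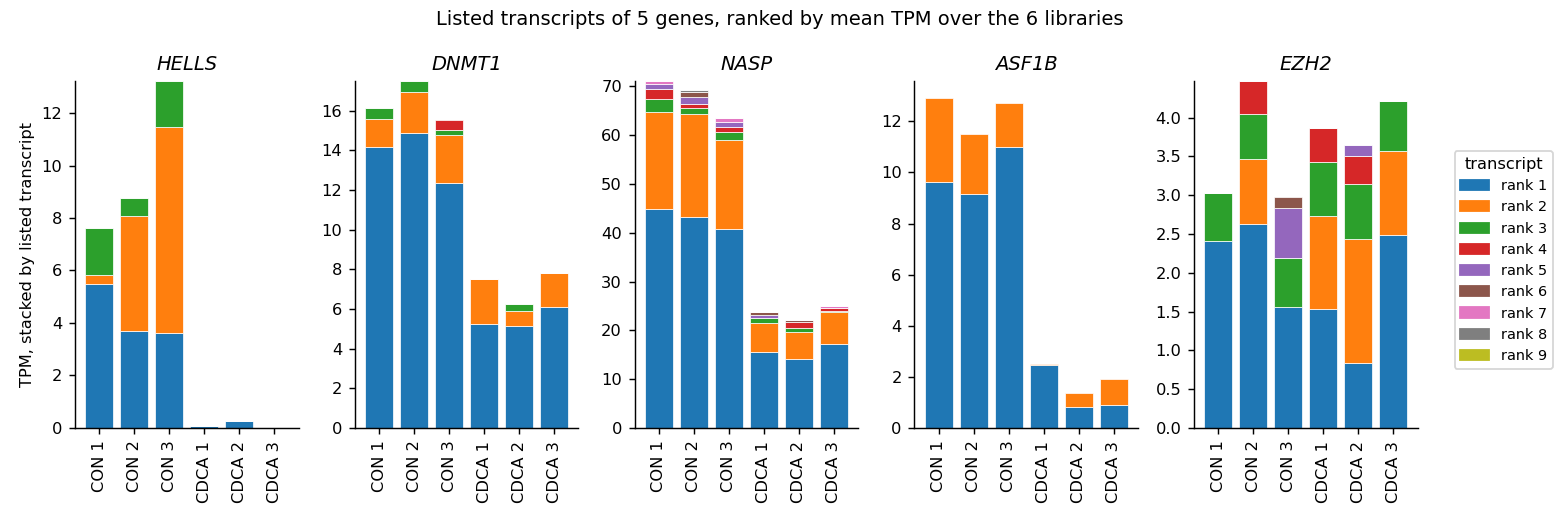
Stacked bars of the listed transcripts of HELLS, DNMT1, NASP, ASF1B and EZH2 in each library, in TPM on linear scales from 0, with transcripts ranked by their mean over the 6 libraries. The rank 2 transcript of HELLS ranges from 0.33 to 7.88 TPM across the CON libraries, and the rank 2 transcript of EZH2 is present in all 3 CDCA libraries and in 1 CON library.

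The order of the levels changed with the group. In CON it ran NASP, HMGB2, CHAF1A, DNMT1, ATAD2, ASF1B, HELLS, EZH2, CHAF1B and UHRF1; DNMT1 overlapped with ATAD2, ASF1B with HELLS, and CHAF1B with UHRF1 over the 3 libraries, and the other neighbours did not overlap. In CDCA, HMGB2 stood above NASP, DNMT1, ATAD2 and CHAF1A followed with overlapping neighbours, EZH2 stood above ASF1B, and HELLS stood among the genes near 0 with CHAF1B and UHRF1. EZH2, whose own level overlapped between the groups, stood below HELLS and ASF1B in CON and above both in CDCA.

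Of the 10 genes, 8 had a mean of at least 1 TPM and were fitted together with all other genes that passed this filter. HELLS, DNMT1, NASP, ASF1B, CHAF1A and ATAD2 met the rule for lower and none met it for higher, against 3.90% of all 8708 tested genes called lower and 3.51% called higher. For 7 of the 8, all CDCA values were under all CON values, as they were for 27.8% of all tested genes. The median log2 fold change was -1.30 for the 8 genes and 0.05 for all tested genes. Since the genes were chosen on this contrast, nothing is read from these counts. The same 6 genes met the rule under each of the 14 other settings, and as these use the same libraries, nothing is read from that either.

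Of 14 relatives and partners of these genes, which the choice by name left out, 10 were tested, and none of them was called, where 3.90% of all tested genes were called lower and 3.51% higher, so 0 of 10 is close to the background. An FDR under 0.05 with any fold change was reached by 70% of them and by 53.2% of all tested genes. ASF1A, the other ASF1, measured 5.58, 5.73 and 4.67 TPM in CON, compared to 4.90, 4.59 and 5.51 TPM in CDCA, with overlapping groups (log2 fold change -0.08, SE 0.10, limma FDR 0.56). The ratio of ASF1B to ASF1A within a library was 2.32, 2.01 and 2.72 in CON and 0.512, 0.298 and 0.347 in CDCA, so ASF1B exceeded ASF1A in each CON library and lay below it in each CDCA library. RBBP4, the small subunit of CAF-1 and also a subunit of PRC2, averaged 67.9 ± 2.1 TPM in CON and 57.1 ± 4.1 TPM in CDCA (SD, n = 3 each; log2 fold change -0.25, SE 0.06, limma FDR 0.013), short of the limit for a call. CHAF1A stood at 0.332 to 0.354 of RBBP4 in CON and at 0.0995 to 0.124 in CDCA.

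NAP1L1 was counted with the relatives and partners as another histone chaperone, mainly of H2A and H2B. It averaged 158 ± 11 TPM in CON and 208 ± 9.0 TPM in CDCA (SD, n = 3 each; log2 fold change 0.39, SE 0.06, limma FDR 0.0017). This difference was opposite in sign to that of NASP but under the fold limit. UHRF2, the relative of UHRF1, was well above the filter, at 10.3 ± 0.53 TPM and 9.76 ± 0.14 TPM (SD, n = 3 each; log2 fold change -0.07, SE 0.06, limma FDR 0.39). The de novo methyltransferases DNMT3A and DNMT3B lay under 1 TPM in every library and were not tested. CDCA7, a partner that helps HELLS act on nucleosomes and whose symbol has no link to the bile acid, was also under the filter, although it reached 1.26 and 1.47 TPM in 2 of the CDCA libraries. ATAD2B, the relative of ATAD2, was at 2.38 ± 0.47 TPM and 3.15 ± 0.34 TPM (SD, n = 3 each), with a limma FDR of 0.097. SMARCA5, another SNF2 remodeler, did not pass the filter either, at 0.57 to 0.64 TPM in CON and 0.91 to 1.05 TPM in CDCA.

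EED and SUZ12, the other core subunits of PRC2, had higher summed TPM over their listed transcripts than EZH2 in both groups. EED, which binds the methylated histone, averaged 13.6 ± 1.3 TPM in CON and 10.04 ± 0.82 TPM in CDCA (SD, n = 3 each; log2 fold change -0.41, SE 0.09, limma FDR 0.0089), and SUZ12, its scaffold, at 10.3 ± 0.16 TPM and 7.94 ± 0.63 TPM (log2 fold change -0.34, SE 0.07, limma FDR 0.0062). EZH1, the other catalytic subunit, was at 0.907 ± 0.17 TPM and 1.59 ± 0.38 TPM (log2 fold change 0.44, SE 0.15, limma FDR 0.043). EZH1 passed the filter through its CDCA libraries, and its limma FDR was over 0.05 in 8 other settings, reaching 0.118 without CDCA replicate 2. None of the 3 reached the fold limit. Of the HMGB family, HMGB1 was the most abundant, with 459 ± 25 TPM in CON and 275 ± 9.7 TPM in CDCA (SD, n = 3 each; log2 fold change -0.74, SE 0.05, limma FDR 5.8e-05). HMGB3 was at 11.4 ± 0.37 TPM and 9.22 ± 0.32 TPM (log2 fold change -0.28, SE 0.06, limma FDR 0.0064). HMGB2 stood at 0.0663 to 0.0690 of HMGB1 in CON and at 0.0965 to 0.101 in CDCA. Genes of the HMGB family have near-identical copies in mammalian genomes, and how shared reads were divided between them is uncertain.

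**Figure D3:**
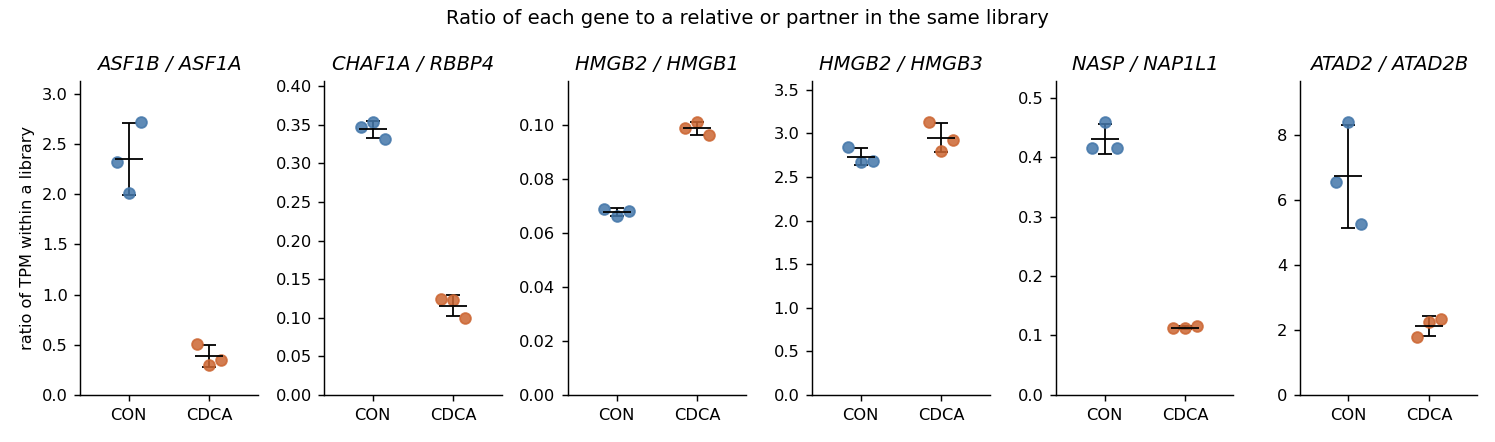
Ratio of TPM within a library between 5 of the genes and a relative, a partner or, for NASP, another histone chaperone (NAP1L1). The 3 CON (blue) and 3 CDCA (orange) libraries are shown on linear scales from 0, and bars show the mean and SD. ASF1B, CHAF1A and ATAD2 are lower against their relative or partner in each CDCA library, and NASP is lower against NAP1L1. HMGB2 is higher against HMGB1, and the ratio of HMGB2 to HMGB3 overlaps.

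Genes of the same processes beyond the 10 were put in 6 lists, written from general knowledge but with earlier results of these data known, so their counts are no independent evidence: DNA methylation, histone chaperones, Polycomb, the SNF2 family, HMG and bromodomain genes, and histone genes. They held 123 genes, of which 89 gene IDs were tested. Of these 10 were called lower and 1 higher, or 11.2% and 1.12% of them, against 3.90% and 3.51% of all tested genes. An FDR under 0.05 with any fold change was reached by 69.7% of them and by 53.2% of all tested genes. The median log2 fold change was -0.21, against 0.05 for all tested genes.

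In the DNA methylation list, 15 of 21 genes were tested, with a median of -0.18, and only PCLAF was called (6.67% lower, against 3.90% of all tested genes). PCLAF, a partner of PCNA at the replication fork, fell from 140 ± 14 TPM (SD, n = 3) to 26.8 ± 3.1 TPM (log2 fold change -2.34, SE 0.10, limma FDR 1.1e-05). In the list of other histone chaperones, 25 of 31 genes were tested, with a median of -0.22; 3 were called lower (12%, against 3.90% of all tested genes) and none higher (against 3.51%). HJURP, the chaperone of the centromeric histone, fell from 10.01 ± 0.18 TPM to 1.91 ± 0.28 TPM (log2 fold change -1.92, SE 0.09, limma FDR 1.4e-05). TONSL, which binds newly deposited histones behind the fork, fell from 11.2 ± 1.3 to 3.23 ± 0.35 TPM (log2 fold change -1.53, limma FDR 5.8e-05). HAT1, which acetylates new histone H4, fell from 35.2 ± 2.4 to 16.6 ± 1.2 TPM (log2 fold change -1.04, limma FDR 6.3e-05), but without CON replicate 1 or CDCA replicate 1 its log2 fold change was -0.98, under the limit.

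In the Polycomb list, 16 of 20 genes were tested, and the only call was upward (6.25%, against 3.51% of all tested genes), with none lower (against 3.90%). PHF1, an accessory subunit of PRC2, rose from 1.997 ± 0.13 TPM (SD, n = 3) to 10.3 ± 0.18 TPM (log2 fold change 1.92, SE 0.07, limma FDR 6.4e-06), and the median of the list was 0.00086. In the SNF2 family, to which HELLS belongs, 16 gene IDs were tested, with a median of 0.10, and 3 were called lower (18.8%, against the same 3.90%) and none higher. ERCC6L, a helicase of mitotic chromosomes, fell from 4.76 ± 0.48 to 1.26 ± 0.16 TPM (log2 fold change -1.35, limma FDR 0.00010). RAD54B and RAD54L, motors of homologous recombination, had log2 fold changes of -1.18 and -1.02 (limma FDR 0.00024 for both); RAD54L was at -0.997 without CON replicate 2 and at -0.95 without CDCA replicate 1, where the call was lost, and a further gene ID named RAD54B lay under the filter.

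Among the HMG and bromodomain genes, 11 of 13 were tested, with a median of -0.18, and none was called, where 3.90% of all tested genes were called lower and 3.51% higher. The largest difference was that of HMGN3, a nucleosome-binding protein, with 17.8 ± 2.1 TPM in CON and 8.96 ± 0.71 TPM in CDCA (SD, n = 3 each; log2 fold change -0.91, limma FDR 0.00035), and 5 of the 11 were lower and 2 higher at an FDR under 0.05, together 63.6%, against 53.2% of all tested genes. Of the histone genes, 9 of 13 were tested, with a median of -0.62, 3 called lower (33.3%, against 3.90% of all tested genes) and none higher (against 3.51%). H2AX, the variant phosphorylated at DNA breaks, fell from 40.3 ± 5.5 to 13.9 ± 4.1 TPM (log2 fold change -1.50, SE 0.21, limma FDR 0.0012). CENPA, the centromeric histone, fell from 20.02 ± 0.41 to 7.69 ± 0.98 TPM (log2 fold change -1.28, limma FDR 5.8e-05), and H2AZ1 from 333 ± 19 to 159 ± 5.4 TPM (log2 fold change -1.06, limma FDR 1.7e-05). The replacement histone genes H3-3A and H3-3B, named after their values were seen, had log2 fold changes of 0.19 and -0.21, opposite in sign and under the fold limit.

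Cell cycle genes outside the 10 were counted in the same way, against 3.90% of all tested genes called lower and 3.51% called higher. Of 26 tested S phase genes outside the 10, 16 were called lower and 0 were called higher (their median log2 fold change was -1.30), and their summed level was 652 to 704 TPM in CON and 259 to 264 TPM in CDCA. RRM2, DSCC1 and FEN1 had the largest falls, at -2.48, -2.24 and -2.06 (limma FDR 1.8e-06, 6.3e-05 and 0.0013). DSCC1 stayed under 1 TPM in each CDCA library and passed the filter through its CON libraries only. With 0.1 TPM added in place of 1 TPM, RRM2 was at -2.51, DSCC1 at -3.17 and FEN1 at -2.70, so their order depends on the constant. Of 41 tested G2/M genes, 27 were called lower and 0 were called higher (their median was -1.26), and MKI67, CDCA3 and AURKB led at -2.56, -2.31 and -2.20 (limma FDR 3.7e-06, 8.9e-06 and 3.3e-06). HJURP and CENPA belong to the G2/M list as well. In bulk RNA, fewer cells in S phase and less of each mRNA per cell cannot be told apart, and the part of either in the values of the 10 genes was not tested.

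**Figure D4:**
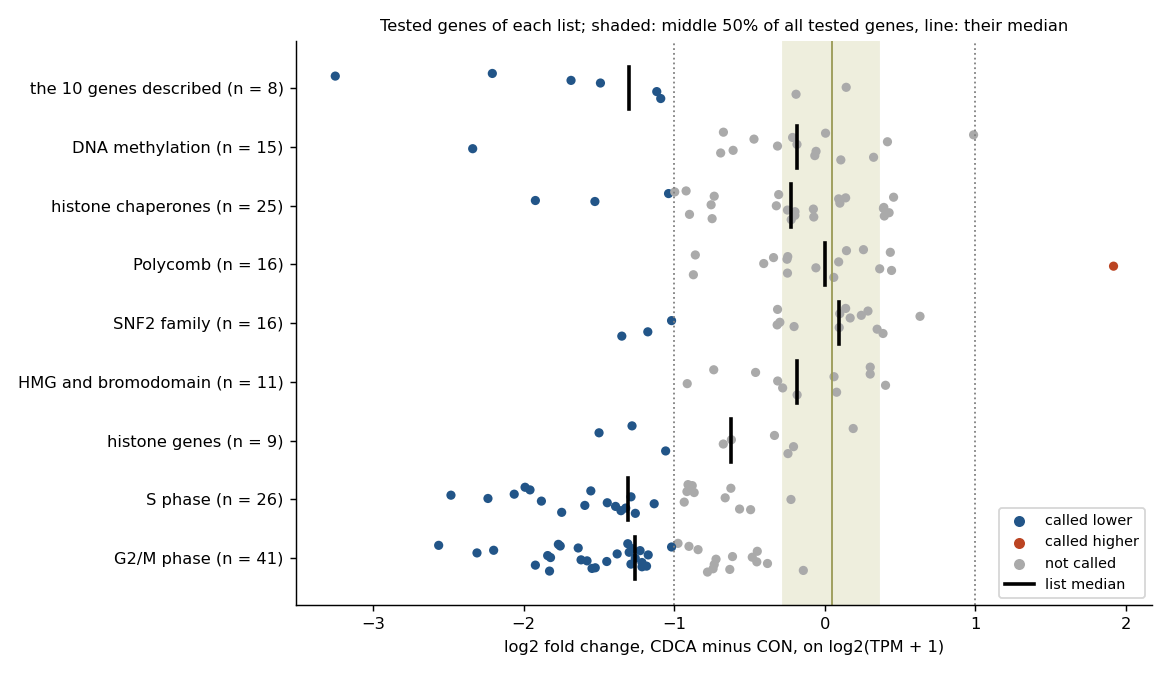
Log2 fold change, CDCA minus CON on log2(TPM + 1), of the tested genes of each list; blue points were called lower, the orange point was called higher, grey points were not called, black bars are list medians, dotted lines mark the fold limit, and the shaded band holds the middle 50% of all tested genes. The medians of the 10 described genes (8 tested, -1.30), S phase (-1.30) and G2/M phase (-1.26) lie beyond the limit, and those of the 6 other lists between -0.62 and 0.10.

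The tested genes most like HELLS were found from the root mean square difference of log2(TPM + 1), each gene centred on its mean over the 6 libraries. They were COX1, COX3, MKI67, TK1 and RRM2, at 0.356, 0.387, 0.444, 0.445 and 0.470 log2 units. COX1 and COX3 are encoded by mitochondrial DNA, MKI67 is the Ki-67 antigen of cycling cells, and TK1 and RRM2 supply deoxynucleotides. Because HELLS differed so much between the groups, this measure ranks mainly by the size of the difference. Among the 10 genes the nearest to HELLS was ASF1B, at 0.614, and the most alike pair was DNMT1 and ATAD2, at 0.129, followed by NASP and CHAF1A, at 0.136. The log2 fold changes were -1.09 for DNMT1 and -1.12 for ATAD2, and -1.49 for NASP and -1.69 for CHAF1A. The measure thus ranks these pairs too by the difference on which the genes were chosen, and nothing is read from it.

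The mitochondrial mRNAs summed to 49477.5 to 55014.8 TPM in CON and 10528.9 to 12288.5 TPM in CDCA. Their share of the full total scales every other TPM, and it is smaller than their share of the listed sum. Computing listed totals without them brings the other listed rows to the same sum in every library. This also takes out any difference in what unlisted transcripts took, and the part of each in the shifts was not tested. With totals computed without the mitochondrial mRNAs, the median log2 fold change of all tested genes moved from 0.05 to -0.08 and that of the 8 genes from -1.30 to -1.45. The calls over all tested genes went from 306 higher and 340 lower to 221 higher and 462 lower. HMGB2 was then at -0.34 and EZH2 at 0.02, and HMGN3 passed the fold limit at -1.06. UHRF2 moved from -0.07 to -0.21, with a limma FDR of 0.028 in place of 0.39, RBBP4 from -0.25 to -0.40 and NAP1L1 from 0.39 to 0.24. Scaling to the same median ratio moved the medians less, to 0.004 for all tested genes and -1.35 for the 8 genes. That scaling gave 273 genes higher and 375 lower, and UHRF2 was at -0.11 with a limma FDR of 0.15.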

How the data were processed

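RNA-seq libraries of IPEC-J2 cells, 3 CON and 3 CDCA, were analysed from a table of TPM that the authors deposited, with 1 row per listed transcript. Per the study's methods, RSEM gave the values. The submitters' processing notes name Bowtie 0.12.2 and the mouse build mm10, although the rows carry pig Ensembl IDs, so no coordinates are given. Annotation release and filters are not given in the sources used here. Symbols came from a reference table (15029 IDs), then the deposited names (2472) and, for 11 list genes without either, the descriptions.

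TPM were summed per gene ID. Genes averaging 1 TPM or more over the 6 libraries (8708) were fitted on the log2(TPM + 1) scale by limma 3.58.1 under R 4.3.3, using lmFit and trended eBayes, and p-values were adjusted over all of these genes by the Benjamini-Hochberg method. The steps were also run on simulated data with independent noise and no shift in the mitochondrial share. Such data differ from these libraries, and nothing is read from that run. edgeR, which the authors used, needs counts and was not run.

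The 10 genes and the lists were chosen with earlier results of these data known. Named were these 10 genes, their relatives and partners, the 3 largest called changes of each list (the largest change where none was called) and the 5 genes nearest HELLS. The other settings were a pseudocount of 0.1 TPM, no filter, 3 other scalings, the highest transcript of a gene, the replicate number as a block, eBayes without a trend and each library left out.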

Additional observations from a re-analysis of the deposited data

How the results depend on the processing

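The same 6 of the 10 genes were called lower, and none higher, in each setting tried; as the genes were chosen on this contrast and these libraries, that is a description and no sign of stability. HELLS passed the filter through its CON libraries alone. The median log2 fold change, -1.30 over 8 tested genes, was -1.37 with a pseudocount of 0.1 TPM, -1.45 with totals without the mtDNA-encoded genes and, over 10 genes, -1.10 with no filter; with each library left out it ran from -1.35 to -1.28. For the related genes outside the 10, the median of -0.21 was -0.074 with no filter, -0.35 without the mtDNA-encoded totals, -0.26 when scaled to the same median ratio and -0.18 when rescaled to 1000000, and ran from -0.22 to -0.19 with a library left out. PHF1 was called higher in all settings, and MBD2 joined it, making 2, with a pseudocount of 0.1 TPM, rescaled to 1000000 or with the highest transcript; with a library left out the count ran from 1 to 2. MBD2 is named here after its values were seen. Over all tested genes, calls went from 306 higher and 340 lower to 509 and 505 with a pseudocount of 0.1 TPM. They went to 523 and 481 when rescaled to 1000000, where 10947 genes were tested. Rescaling raises the values, so the added constant of 1 and the filter of 1 TPM then weigh less. The part of each in the change of calls was not tested. The replicate number as a block gave 309 higher and 343 lower, and same-numbered libraries deviated from their group means with correlations of -0.035, -0.092 and -0.051, so the numbers were not taken to pair the libraries. EZH1 had an FDR under 0.05 (0.043) that was lost in 8 settings: limma gave 0.105 with no filter, 0.079 without the mtDNA-encoded totals, 0.057 at the same median ratio, 0.081 with the block, and from 0.0476 to 0.118 with a library left out. Transcripts that the table may lack limit what can be said of UHRF1 and CHAF1B.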
